A study of Mus musculus with 6 samples.

Results

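The genes described here are 10 components of the TGF-beta pathway, namely Tgfb1, Tgfbr1, Tgfbr2, Smad2, Smad3, Smad4, Smad7, Ski, Skil and Nrros. They were chosen by name from the 19848 genes of the deposited RNA table, and all 10 were found in it. The table comes from CITE-seq, a single-cell method in which surface proteins are read through antibody tags alongside the RNA, run on mononuclear cells enriched from whole brains of perfused female C57BL/6 mice. Mice were young (12 weeks) or aged (72 weeks), and at each age were either vehicle-treated controls or given antibiotics that depleted the gut microbiota. The 24 mice (6 per group) were combined into 12 pools, 3 per group, and the pool is the replicate throughout. Agents, doses and duration of the antibiotics are not stated in the labels. All young pools were run in 1 well of the instrument and all aged pools in another, so age and well cannot be told apart. Control pools carried hashtags 1 to 3 and antibiotic pools 4 to 6, so the arm and the hashtag number cannot be told apart either.

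TGF-beta 1 is secreted bound to its own propeptide as an inactive complex. The membrane protein NRROS (also called LRRC33) tethers this latent complex on myeloid cells, where integrins can release the active ligand. Active ligand binds the receptor TGFBR2, which recruits and switches on TGFBR1; TGFBR1 then phosphorylates SMAD2 and SMAD3, which enter the nucleus with SMAD4. SMAD7 blocks the receptor, and SKI and SKIL (also called SnoN) repress Smad-driven transcription; Smad7 and Skil are themselves induced by the pathway. In the brain the pathway is known for maintaining the identity of microglia, the resident macrophages of the tissue.

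By RefSeq annotation (GRCm38.p6, the mm10 assembly), Nrros lies on chromosome 16 (32142785 to 32165594, minus strand) and Tgfb1 on chromosome 7, Tgfbr1 and Ski on chromosome 4, Tgfbr2 and Smad3 on chromosome 9 and Skil on chromosome 3. The 250 bases before the annotated start are shown for Nrros, the gene whose level differed between the arms, and for the first annotated start of Tgfbr1, the receptor gene that stood highest in microglia relative to every other type.

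Nrros, chr16:32165595-32165844, minus strand: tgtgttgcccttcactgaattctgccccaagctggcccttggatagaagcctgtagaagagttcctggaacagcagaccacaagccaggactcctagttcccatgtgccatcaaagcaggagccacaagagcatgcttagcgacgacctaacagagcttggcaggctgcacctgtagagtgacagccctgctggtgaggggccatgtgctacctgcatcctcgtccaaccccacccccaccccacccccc

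Tgfbr1, chr4:47352972-47353221, plus strand: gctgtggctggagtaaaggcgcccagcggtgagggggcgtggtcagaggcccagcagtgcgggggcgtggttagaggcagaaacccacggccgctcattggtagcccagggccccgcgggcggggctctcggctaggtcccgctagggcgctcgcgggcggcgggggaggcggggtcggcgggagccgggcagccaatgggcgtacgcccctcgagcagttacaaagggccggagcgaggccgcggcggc

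These 2 windows differ in base composition, with 58.4% G or C for Nrros and 74.8% for Tgfbr1, against a median of 52.4% over all 32851 RefSeq windows of the same length. RefSeq windows were at hand for 6 of the 10 genes. On both strands, the palindromic Smad-binding element GTCTAGAC and the PU.1 site GAGGAAGT matched in none of them. These letters occur in 0.167% and 2.44% of all windows. The shorter Smad box CAGACA, present in 17.1% of all windows, matched once, at -203 to -198 relative to a second annotated start of Tgfbr1. Only letters were compared, and the data hold no measurement of binding.

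The 13052 cells (3263 in every group) carried the authors' cell type names. Microglia were 9403 of them (72.0%), with 475 to 1186 per pool and a median of 6934 raw UMIs per cell. The other types were 728 CD8+ cells, 634 Ly6CLow, 506 BAM (border-associated macrophages), 487 BCells, 389 Ly6CHigh, 352 Ly6C+Ly6G+, 214 CD4+ cells, 330 innate lymphoid cells (ILCs) and 9 NKCells. For 9 of the 10 types, the summed level of the markers listed for the type was higher in it than in any other type; the list for CD4+ cells ranked 2 in CD4+ cells. A total of 59 cell barcodes occurred in both wells (118 cells, 10 of them microglia, 43 Ly6CHigh and 27 Ly6C+Ly6G+); without those cells the calls given for microglia and Ly6CLow were the same. Levels below are mean SCT values per cell, that is, UMI values corrected by the authors for depth, averaged per pool within each cell type. These values are used to compare a gene between cells and not genes with each other. The cell types were called on the same cells, so differences between types are described without a test. NKCells had too few cells for a level.

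Among the genes of ligand supply, Tgfb1 was present in every type with enough cells, and Nrros was highest in 4 myeloid types. Tgfb1 was highest in microglia (2.56 ± 0.10, mean ± SD over 12 pools) and Ly6CHigh cells (2.45 ± 0.68), which did not differ beyond their spread, since each was the higher in 6 of 12 pools. Ly6CLow cells followed at 2.06, BCells at 1.67, BAM at 1.51 and ILCs at 1.40. CD4+ cells stood at 1.01, Ly6C+Ly6G+ cells at 1.00 and CD8+ cells lowest at 0.764. No neighbouring pair in this order had separate pool ranges. Nrros had a different order, with BAM at the top (1.43 ± 0.26), then Ly6CHigh (1.38 ± 0.56), Ly6CLow (1.10 ± 0.34) and microglia (0.906 ± 0.16). BAM lay above Ly6CHigh cells in only 5 of 12 pools. Among cells of at least 2000 raw UMIs, BAM were at 1.51 and Ly6CHigh cells at 1.65. BAM lay above microglia in 12 of 12 pools. BCells (0.514) and the myeloid Ly6C+Ly6G+ cells (0.487) followed, each the higher in 6 of 12 pools, and then ILCs at 0.334. The T cells were lowest, with 0.193 in CD8+ and 0.172 in CD4+ cells. Its value was above 0 in 52.5% of microglia and in 11.7% of CD4+ cells, whose median raw UMI totals were 6934 and 5972.

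The receptor genes divided by type more sharply. Tgfbr1 was at 5.05 ± 0.28 in microglia, with 97.9% of cells above 0, and its lowest microglial pool (4.56) lay above the highest pool of every other type. BAM came next at 1.97 ± 0.50 and were themselves separate from Ly6CLow cells (0.921). The remaining types lay between 0.193 in CD8+ and 0.621 in Ly6CHigh cells, and neighbours among them overlapped. The microglial markers P2ry12 and Tmem119 were also present in the BAM class, at 2.44 and 1.89 against 10.6 and 8.09 in microglia, and their part in the BAM level of Tgfbr1 was not tested. Tgfbr2, the ligand-binding receptor, was shared by microglia (1.29 ± 0.07) and BAM (1.24 ± 0.20), each the higher in 6 of 12 pools. All other types were at 0.398 to 0.648, and BCells, the next in order, lay below BAM without overlap.

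Among the signal-carrying Smad genes, Smad2 and Smad4 varied less across types than Smad3. Smad2 ran from 0.141 in BCells to 0.268 in microglia, and Smad3 from 0.0551 in BCells to 0.205 in microglia. Smad4 ran from 0.327 in BCells to 0.554 ± 0.44 in Ly6CHigh cells, whose pools lay between 0.156 and 1.83. Averaged over cells instead of pools, Smad4 was at 0.406 in Ly6CHigh cells and 0.407 in microglia. No pair of neighbours in these 3 orders had separate pool ranges. The ends of the Smad3 order were apart, with microglia above BCells in 12 of 12 pools (a ratio of 3.72) and the lowest microglial pool (0.159) above the highest BCells pool (0.125). Several of the smaller types had pools at 0 for Smad2 or Smad3, so their order carries little weight.

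The inhibitor genes were again highest in microglia, followed by CD8+ cells for Smad7 and by BAM for Skil and Ski. Smad7 was at 2.83 ± 0.21 in microglia, above CD8+ cells (1.71 ± 0.38) in 12 of 12 pools. The other lymphoid types followed, with 1.44 in CD4+ cells, 1.36 in BCells and 1.2 in ILCs. Their pool ranges overlapped, and CD8+ cells lay above CD4+ cells in only 6 of 11 pools. Ly6CLow (0.811), BAM (0.741), Ly6CHigh (0.423) and Ly6C+Ly6G+ cells (0.382) were lower. Skil was at 3.82 ± 0.25 in microglia, with its lowest pool (3.39) above the highest BAM pool (3.21), and at 2.40 in BAM and 2.07 in Ly6CLow cells. Ski was at 1.52 ± 0.13 in microglia and 0.830 ± 0.37 in BAM, with microglia higher in 11 of 12 pools, and at 0.308 to 0.434 elsewhere.

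**Figure D1:**
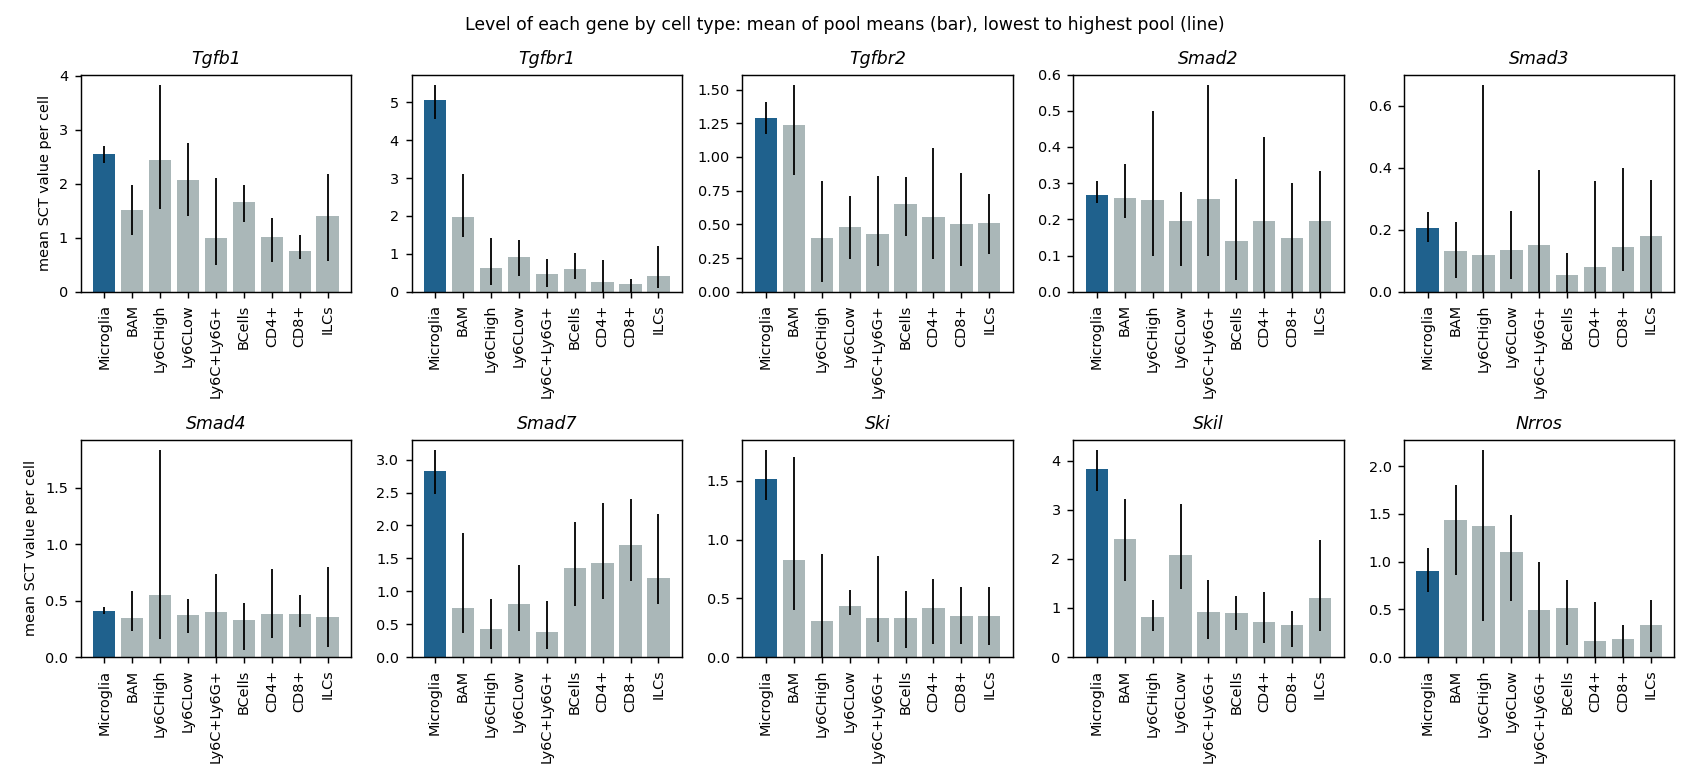
Mean SCT value per cell (y axis, from 0) of the 10 TGF-beta pathway genes in 9 cell types (x axis); bars are the mean of pool means (microglia in blue) and lines run from the lowest to the highest pool. Tgfbr1, Smad7 and Skil are highest in microglia without overlap. Nrros has its highest means in BAM and Ly6CHigh cells, which overlap, and Smad2 and Smad4 vary less across types than Smad3.

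The genes whose pattern was most like each member's were found over 36 type-by-group means of at least 10 cells, among 8094 genes, by Pearson's r of log2 values. These points share wells and depth, and the correlations are descriptions. Among the genes most like Tgfbr1 were Rhob (0.98) and Slco2b1 (0.98). Nrros was most like Zeb2 (0.93), Psap (0.93) and Bri3 (0.92). Skil was most like the immediate early genes Ier2 (0.92), Jun (0.91) and Egr1 (0.91), which respond to tissue dissociation. Ski was most like Golm1 (0.93), Pmepa1 (0.91) and Tagap (0.90), of which Pmepa1 encodes another inhibitor of Smad signalling. Smad7 was most like Rhoh (0.95), Clk1 (0.88) and Ddx50 (0.86). Tgfbr2 was most like Ppp1r10 (0.92), Rbm26 (0.88) and St3gal6 (0.88), and Tgfb1 was most like BC035044 (0.88), Srsf9 (0.86) and Cd2ap (0.86). Smad2, Smad3 and Smad4 had no partner above 0.76. Within the 10 genes, the closest pair was Tgfbr1 with Skil (0.88), then Tgfbr2 with Ski (0.85) and Tgfbr1 with Ski (0.83). Tgfb1 and its tether gene Nrros stood at 0.76. Nrros and Smad7 stood at -0.36.

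In microglia the question was whether antibiotic treatment or age moved these genes. Nrros was lower in antibiotic than in control pools at both ages; Smad7 was slightly higher in aged than in young microglia; the ligand, receptor and signal-carrying Smad genes did not pass the test in any contrast. The test was limma on log2 of the pool mean plus 0.05, with Benjamini-Hochberg adjustment over the 8759 genes tested and a threshold of 0.05. All 10 genes were among those tested. For antibiotic minus control, 0 of the 10 were called in young mice, where 0.137% of all genes were called. In aged mice 1 of 10 was called, against 3.23% of all genes, and over both ages 1 of 10, against 5.4%. Both of these calls were Nrros. When the antibiotic effect was compared across ages, 0 of the 10 and 0 of all genes were called by limma, with 0 of the 10 and 579 of all genes (6.61%) at an unadjusted p under 0.05. The median log2 change of the 10 genes over both ages was -0.05, and that of all genes was -0.01.

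Nrros was measured at 1.00, 1.15 and 1.13 in young control pools, against 0.793, 0.871 and 0.784 in young antibiotic pools. In aged mice it was at 0.866, 1.11 and 0.957 in control pools and at 0.684, 0.708 and 0.815 in antibiotic pools. Every antibiotic pool thus lay below every control pool of its age. Pools apart in the same direction at both ages, either up or down, were seen for 4.67% of all genes. The share of microglia above 0 for Nrros was also lower in antibiotic pools. It was 54.9% to 62.4% in young control against 49.2% to 50.6% in young antibiotic pools. In aged mice it was 50.9% to 60.2% in control against 43.7% to 49.5% in antibiotic pools. Over both ages Nrros fell by 0.39 on the log2 scale (SE 0.060, 95% interval -0.52 to -0.27, adjusted p = 0.00102 in limma). The size was alike in the 2 ages, with -0.40 (SE 0.085) in young and -0.39 (SE 0.085) in aged mice; the difference was 0.01, with a 95% interval from -0.24 to 0.26 (adjusted p = 0.992 in limma). The adjusted p was 0.0172 in aged mice and 0.0680 in young mice, so that the young comparison alone did not pass.

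Leaving out any 1 of the 12 pools kept the call over both ages, with log2 changes from -0.43 to -0.35 and a highest adjusted p of 0.00406 in limma. The call in aged mice alone was less firm. It was lost without aged control 2 (-0.29, adjusted p = 0.102 in limma), without aged antibiotic 1 (-0.34, adjusted p = 0.0626 in limma) and without aged antibiotic 2 (-0.36, adjusted p = 0.0775 in limma). The comparison in young mice passed in cells of at least 2000 raw UMIs (-0.42, adjusted p = 0.0339 in limma), a setting chosen after the data were seen. Over both ages that setting gave -0.38, and microglia matched on raw UMIs gave -0.41.

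Markers of other cells were looked at beside this change. The 6 markers of BAM, the type with the highest mean of Nrros, were summed per microglial cell. They were at 0.0633 in control and 0.0618 in antibiotic pools of young mice. In those of aged mice they were at 0.0629 and 0.0678, against 24.96 in BAM. Cd163 and Lyve1 of that list were under 0.01. The 4 markers of Ly6CHigh cells, next in order for Nrros, overlapped between the arms at each age. Their means in control and antibiotic pools were 0.115 and 0.131 in young and 0.0901 and 0.140 in aged mice. In Ly6CHigh cells the sum was 26.6. The 6 markers of Ly6C+Ly6G+ cells, led by S100a9, had higher means in antibiotic pools, with overlap in young but not in aged mice. They summed to 2.24 to 6.29 in young control against 2.33 to 20.3 in young antibiotic pools, and to 0.626 to 0.708 in aged control against 1.07 to 3.01 in aged antibiotic pools. In Ly6C+Ly6G+ cells the sum was 2263, and none of the 6 was under 0.01 in microglia. Nrros itself was at 0.487 in Ly6C+Ly6G+ cells, and the part of this signal in the result was not tested. Marker sums of 3 lymphoid types were higher in young antibiotic than in young control pools without overlap, and overlapped in aged mice. They were 0.433 to 0.505 against 0.362 to 0.395 for ILCs, 0.0135 to 0.0184 against 0.0092 to 0.0119 for CD8+ cells, and 0.0143 to 0.0210 against 0.0033 to 0.0108 for CD4+ cells. In those types themselves the sums were 9.19, 19.4 and 9.43. Il7r (0.2603) and Rora (0.1125) made up most of the ILC sum in microglia, and Gata3 and Ncr1 were under 0.01. The CD8+ and CD4+ lists share Cd3e and Cd3d, so their sums are not separate signals. The Ly6CLow sum was higher in aged antibiotic (1.35 to 1.42) than in aged control pools (1.28 to 1.35) without overlap, against 8.37 in Ly6CLow cells. Nr4a1 (1.16) made up most of that sum in microglia, and the other 4 of its 5 genes were under 0.01. The part of these signals was not tested either. The sum of 11 dissociation stress genes was 324 to 338 in young control against 309 to 351 in young antibiotic pools. In aged mice it was 290.7 to 295.5 in control against 296.3 to 304.9 in antibiotic pools, without overlap. The part of these genes in the result was not tested.

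**Figure D2:**
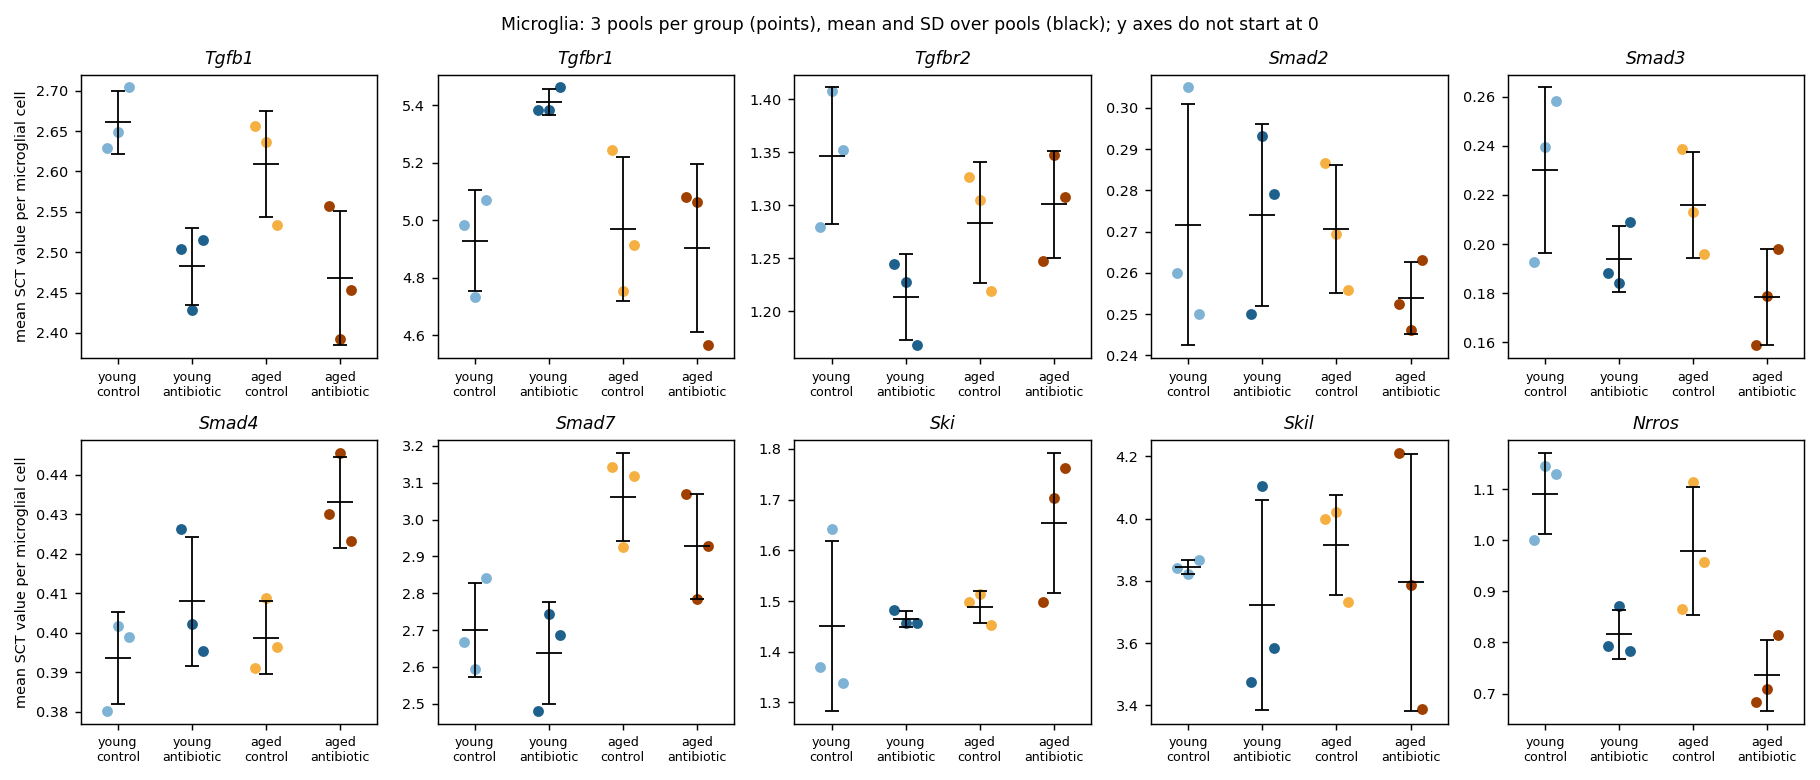
Mean SCT value per microglial cell (y axis, not starting at 0) for the 10 genes in the 4 groups (x axis); points are the 3 pools of a group and black marks are their mean and SD. Nrros is lower in every antibiotic pool than in every control pool of the same age, and Smad7 is higher in every aged pool than in every young pool of the same arm.

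The other component of ligand supply, Tgfb1, differed little. It was at 2.63, 2.65 and 2.70 in young control against 2.50, 2.43 and 2.52 in young antibiotic pools, which do not overlap. In aged mice it was at 2.66, 2.64 and 2.53 in control and 2.56, 2.39 and 2.45 in antibiotic pools, which do. Over both ages the log2 change was -0.09 (95% interval -0.17 to -0.01) and did not pass (adjusted p = 0.172 in limma).

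Neither receptor gene passed for the antibiotic. Tgfbr1 was at 4.98, 4.73 and 5.07 in young control against 5.38, 5.38 and 5.46 in young antibiotic pools, without overlap (log2 change 0.13, adjusted p = 0.448 in limma). In aged mice it was at 5.24, 4.75 and 4.91 in control and 5.08, 5.06 and 4.56 in antibiotic pools, which overlap. Tgfbr2 was at 1.28, 1.41 and 1.35 in young control against 1.24, 1.23 and 1.17 in young antibiotic pools (log2 change -0.14, adjusted p = 0.380 in limma), and the aged pools of both arms overlapped between 1.22 and 1.35. The antibiotic effect in aged minus that in young mice was -0.15 for Tgfbr1 (95% interval -0.33 to 0.03, adjusted p = 0.811 in limma). For Tgfbr2 it was 0.16 (95% interval -0.01 to 0.34, adjusted p = 0.783 in limma). Pools without overlap were seen for 4 of the 10 genes in young mice (Tgfbr1, Tgfb1, Tgfbr2 and Nrros), against 16.1% of all genes. In aged mice they were seen for 2 of the 10 (Nrros and Smad4), against 22.1% of all genes.

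Of the 10 genes, Smad3 had the second largest antibiotic change over both ages. It was at 0.193, 0.239 and 0.258 in young control against 0.188, 0.184 and 0.209 in young antibiotic pools, and at 0.239, 0.213 and 0.196 in aged control against 0.159, 0.179 and 0.198 in aged antibiotic pools. The groups overlap at each age. Over both ages the log2 change was -0.21 (SE 0.069, adjusted p = 0.0890 in limma), and without young control 1 it was -0.26 and passed (adjusted p = 0.0371 in limma). Smad2 ranged from 0.246 to 0.305 over all 12 pools, and its change over both ages was -0.03 (95% interval -0.15 to 0.09). Smad4 was at 0.391, 0.409 and 0.396 in aged control against 0.430, 0.446 and 0.423 in aged antibiotic pools, without overlap, yet the change of 0.11 did not pass (adjusted p = 0.388 in limma).

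Of the inhibitor genes, none passed for the antibiotic. Smad7 changed by -0.05 over both ages (95% interval -0.14 to 0.04), Skil by -0.05 (95% interval -0.16 to 0.06) and Ski by 0.08 (95% interval -0.03 to 0.19). None of these 3 intervals reached the Nrros value of -0.39.

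For age, which cannot be told apart from the well, 0 of the 10 genes were called in control pools (2.66% of all genes were called), 0 in antibiotic pools (6.15%) and 1 over both arms (9.86%). The 1 was Smad7, the receptor-blocking inhibitor. It was at 2.67, 2.59 and 2.84 in young control and 3.14, 2.92 and 3.12 in aged control pools, and at 2.48, 2.74 and 2.69 in young antibiotic and 3.07, 2.78 and 2.93 in aged antibiotic pools. Aged pools lay above young pools of the same arm in both arms. Pools apart in the same direction in both arms, either up or down, were seen for 7.01% of all genes. Smad7 rose by a log2 value of 0.16 over both arms (SE 0.043, adjusted p = 0.0203 in limma), with 0.18 in controls and 0.15 in antibiotic pools, neither passing on its own (adjusted p = 0.167 and 0.173 in limma).

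This call was fragile. It was lost without young control 2 (adjusted p = 0.0521 in limma), young antibiotic 1 (0.0596), aged control 1 (0.0551) or aged control 3 (0.0502), with log2 changes from 0.14 to 0.16. It was also lost in microglia matched on raw UMIs (0.12, adjusted p = 0.128 in limma). Cells under 2000 raw UMIs made up 8.82% of young and 13.4% of aged microglia, and Smad7 was higher in them (3.26 and 3.29) than in the rest (2.63 and 2.94). Among cells of at least 2000 raw UMIs, chosen as a setting after the data were seen, the change was 0.17 (adjusted p = 0.0175 in limma). The summed markers of CD8+ cells, which ranked second for Smad7, were 0.0103 and 0.0158 per microglial cell in young control and antibiotic pools and 0.0562 and 0.0428 in aged ones, against 19.4 in CD8+ cells. Other sums also lay apart by age in both arms. The dissociation stress sum was lower in aged pools (290.7 to 295.5 against 324 to 338 in controls). The Ly6CLow sum, most of it Nr4a1, was higher (1.28 to 1.35 against 0.914 to 1.18 in controls). The CD4+ sum was also higher, and those of BCells and microglia were lower. The Ly6C+Ly6G+ sum was lower in aged pools too, without overlap only in controls. The part of all these sums in the Smad7 change was not tested.

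Nrros was lower in aged than in young pools by a log2 value that did not pass, at -0.15 over both arms (95% interval -0.28 to -0.02, adjusted p = 0.139 in limma); without aged control 2 it was -0.20 (adjusted p = 0.0418 in limma). Ski was at 1.48, 1.46 and 1.46 in young antibiotic and 1.498, 1.70 and 1.76 in aged antibiotic pools, without overlap, and its change of 0.17 did not pass (adjusted p = 0.203 in limma). Tgfbr1 and Tgfbr2 also did not overlap between young and aged antibiotic pools, in opposite directions (-0.14 and 0.10). That made 4 of 10 genes without overlap there, against 22.2% of all genes, and 1 of 10 in controls, against 19.6%. Over both arms Ski changed by 0.10, and the other 7 genes lay between -0.08 for Smad3 and 0.05 for Smad4. The 7 markers of microglia themselves summed to 101.3 and 100.9 in control and antibiotic pools of young mice and to 93.7 and 89.2 in those of aged mice, and their part in the age values was not tested.

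**Figure D3:**
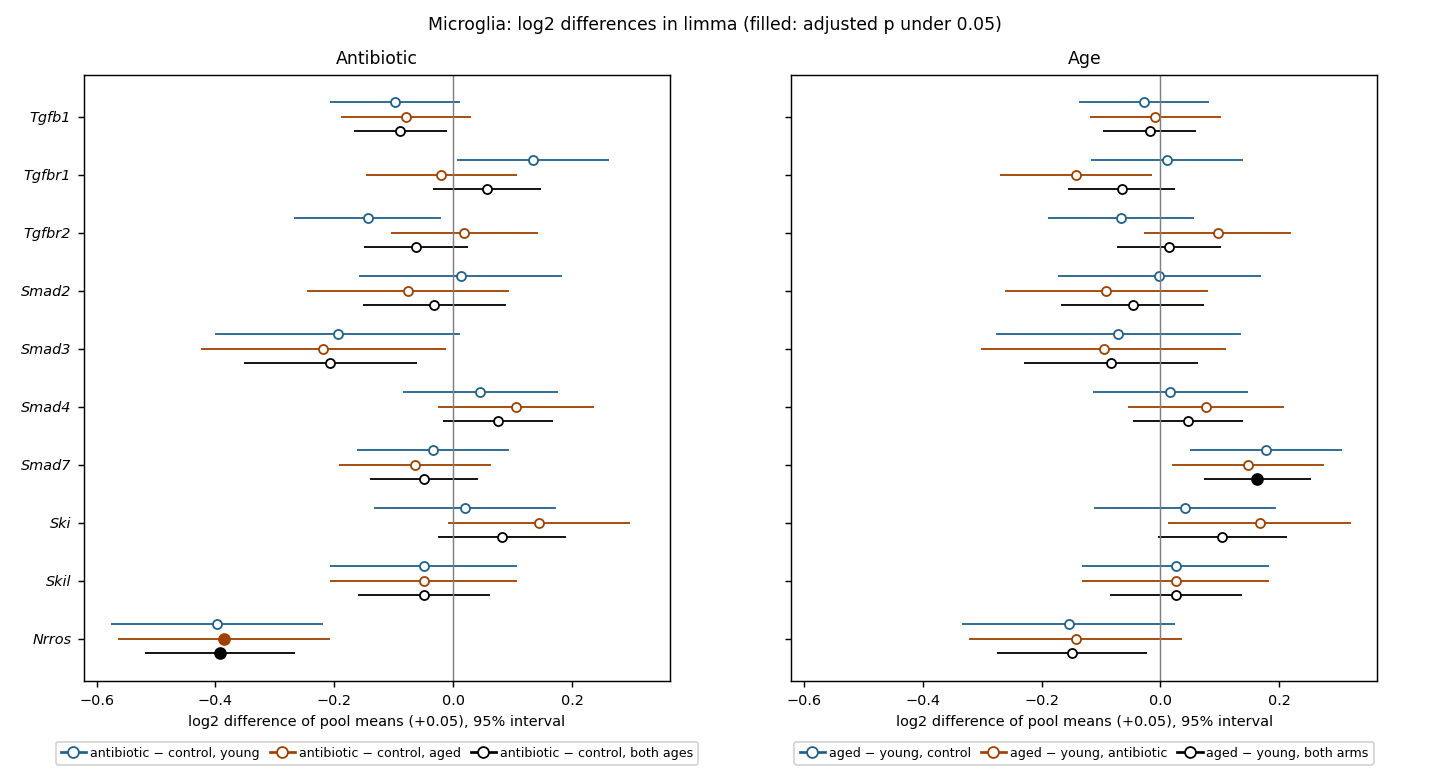
Log2 differences in microglia (x axis) with 95% intervals for the 10 genes (y axis), for antibiotic minus control (left) and aged minus young (right), in each stratum and over both; filled points passed an adjusted p of 0.05 in limma. On the left only Nrros has filled points, at about -0.39, and its intervals overlap those of Smad3. Smad7 is the 1 filled point on the right.

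Of the other types, Ly6CLow cells had at least 20 cells in every pool (33 to 86) and were tested over 8613 genes. None of the 10 genes was called for the antibiotic by limma in young mice, aged mice or over both ages, nor was any of all genes (0% each). At an unadjusted p under 0.05 there were 0 of the 10, and 365 (4.24%), 535 (6.21%) and 525 (6.1%) of all genes. Nrros in Ly6CLow cells changed by -0.12 over both ages, with a 95% interval from -0.47 to 0.23 that includes the microglial value.

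For age, Smad7 was higher and Nrros lower in aged Ly6CLow cells, and neither difference passed without the shallow cells. Smad7 was at 0.397, 0.585 and 0.580 in young control and 0.943, 1.40 and 0.954 in aged control pools. In antibiotic pools it was at 0.535, 0.606 and 0.469 in young and 1.13, 1.17 and 0.960 in aged mice. Aged pools were about 1 log2 unit above young pools without overlap: 1.01 in controls (adjusted p = 0.0394 in limma; 0.755% of all genes called), 0.96 in antibiotic pools (adjusted p = 0.0312; 1.95%) and 0.98 over both arms (SE 0.16, adjusted p = 0.00109; 7.38%). Pools of both arms without overlap were seen for 6.37% of all genes. The median change of all genes over both arms was -0.16. Nrros was at 1.48, 1.49 and 1.04 in young control and 1.17, 0.583 and 1.08 in aged control pools, and at 1.28, 1.48 and 1.37 in young antibiotic and 0.646, 0.826 and 0.720 in aged antibiotic pools. Nrros fell by 0.70 over both arms (SE 0.17, adjusted p = 0.0155 in limma), and did not pass within an arm (adjusted p = 0.286 in controls and 0.0624 in antibiotic pools).

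Neither change passed in Ly6CLow cells of at least 2000 raw UMIs, a cut chosen after the data were seen. There Smad7 differed by 0.27 (adjusted p = 0.771 in limma) and Nrros by -0.21 (adjusted p = 0.791 in limma) over both arms. Cells under that depth were 4.38% of young Ly6CLow cells (12 of 274) and 31.7% of aged ones (114 of 360). In the aged cells under 2000 UMIs, Smad7 was at 2.12 and Nrros at 0.105, against 0.638 and 1.17 in the deeper aged cells. The same shallow cells had 9.04 for the summed markers of ILCs, against 1.02 in the deeper cells, and 4.04 for those of Ly6CLow, against 9.88. In young Ly6CLow cells of at least 2000 UMIs, Smad7 was at 0.481 and Nrros at 1.34. In the 12 young cells under that depth, Smad7 was at 1.33, Nrros at 1.67 and the summed ILC markers at 0.167. Nrros was thus low in the aged shallow cells and not in these 12 young ones, which are too few for a comparison by age. The part of the shallow cells in the age difference was not tested beyond leaving them out.

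The Smad7 call within an arm was also lost on leaving out 1 of several pools. In controls this was so for each young control pool, young antibiotic 1, aged control 1 and 2, and aged antibiotic 1, with log2 changes from 0.83 to 1.10 and adjusted p up to 0.192 in limma. In antibiotic pools it was so for each young antibiotic pool and aged antibiotic 1 and 2, with log2 changes from 0.87 to 1.04 and adjusted p up to 0.125 in limma. Over both arms the calls of Smad7 and Nrros were kept in all 12 such fits, with adjusted p up to 0.00467 and 0.0446 in limma.

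**Figure D4:**
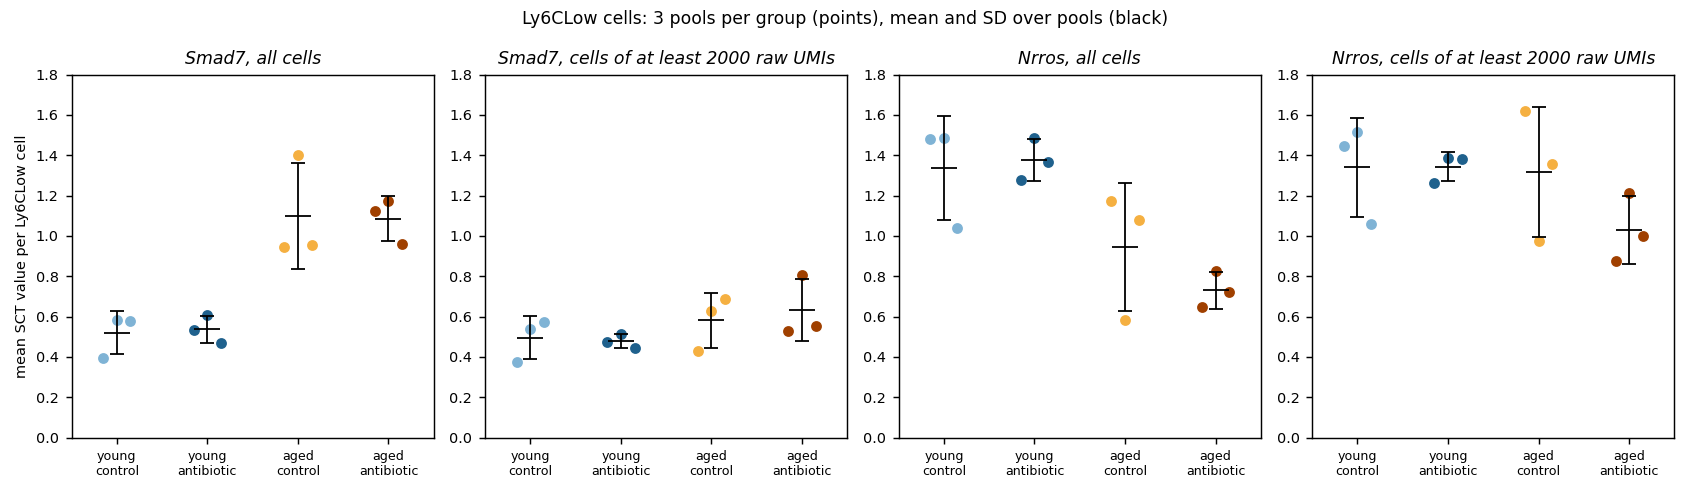
Mean SCT value per Ly6CLow cell (y axis, from 0) of Smad7 and Nrros by group (x axis), in all cells and in cells of at least 2000 raw UMIs; points are the 3 pools of a group and black marks their mean and SD. In all cells Smad7 is near 0.5 in young and 1.1 in aged pools, without overlap in either arm. Nrros overlaps between the ages in control pools and not in antibiotic pools. The differences between the ages are smaller in the deeper cells.

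BAM and BCells, which had at least 10 cells in every pool, were tested as an alternative. None of the 10 genes was called by limma in any of the 7 contrasts in either type. In BAM, limma called 0.0224% of all genes for the antibiotic in young and 0.123% in aged mice, 0% for the difference of these, and 0.0447%, 0.0783% and 0.145% for age in control pools, antibiotic pools and over both arms. In BCells it called 0% for the antibiotic at each age and for their difference, and 0.0596%, 0.0119% and 0.358% for age. For antibiotic minus control over both ages, limma called 0.0559% of 8942 genes in BAM and 0% of 8383 in BCells; at an unadjusted p under 0.05 there were 1 of the 10 and 629 of all genes (7.03%) in BAM, and 0 of the 10 and 330 of all genes (3.94%) in BCells. The 1 in BAM was Nrros. Nrros in BAM was at 1.56, 1.47 and 1.68 in young control against 1.19, 1.18 and 1.38 in young antibiotic pools, and at 1.62, 1.60 and 1.81 in aged control against 1.45, 0.864 and 1.36 in aged antibiotic pools. As in microglia, every antibiotic pool lay below every control pool of its age. Pools apart in the same direction at both ages, either up or down, were seen for 0.738% of all genes in BAM. The log2 change of Nrros in BAM over both ages was -0.39 (SE 0.14, 95% interval -0.69 to -0.10), close to the microglial value in size. It did not pass (adjusted p = 0.585 in limma). In BCells Nrros was at 0.458 to 0.696 in young control against 0.595 to 0.808 in young antibiotic pools, and at 0.267 to 0.635 against 0.125 to 0.487 in aged ones, so the arms overlap at each age. The other types were too small to test, with pools of as few as 5 cells after leaving out 1 CD4+ pool of 4, and their Nrros means did not share 1 direction. In Ly6CHigh cells the means were 1.72 in control and 1.82 in antibiotic pools of young mice, and 1.14 and 0.823 in aged mice. Antibiotic pools had the higher mean at both ages in Ly6C+Ly6G+ cells, with 0.376 and 0.771 in young and 0.349 and 0.454 in aged mice. The same held in CD4+ cells, with 0.205 (2 pools) and 0.299 in young and 0.0611 and 0.133 in aged mice. In CD8+ cells the means were 0.192 and 0.211 in young and 0.191 and 0.180 in aged mice, and in ILCs 0.232 and 0.230, and 0.430 and 0.445.

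The wider pathway was read from the same microglial fit through 7 lists holding 99 other genes of the table, of which 68 passed the filter on low values. Of 12 ligand genes besides Tgfb1, only Gdf15 passed the filter, so Tgfb2 and Tgfb3 were under a mean of 0.05. For the antibiotic over both ages, 1 of 9 receptor genes and 1 of 4 genes of the TAK1 arm (a Smad-independent branch) were called higher, and 2 of 20 target genes lower. None was called among 8 genes of latency and activation, 2 other Smads and 24 Smad partners. Of all genes, 2.16% were called higher and 3.24% lower. None of the 68 was called in young mice by limma, where 5 had an unadjusted p under 0.05, as had 928 of all 8759 genes (10.6%).

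Acvr2b, an activin receptor, was at 0.276 ± 0.04 in young control against 0.373 ± 0.04 in young antibiotic pools (mean ± SD, n = 3), and at 0.258 ± 0.03 and 0.389 ± 0.05 in aged ones. It rose by 0.44 over both ages (SE 0.078, adjusted p = 0.00267 in limma) without overlap at either age. The aged change alone was 0.51 (adjusted p = 0.0158 in limma) and was lost without aged control 2 (adjusted p = 0.0924), aged antibiotic 1 (0.0534) or aged antibiotic 2 (0.0892). Tab1, which activates the kinase TAK1, was at 0.0775 ± 0.0096 in aged control against 0.144 ± 0.0086 in aged antibiotic pools, and at 0.0822 and 0.0838 in young ones. It rose by 0.61 in aged mice (SE 0.095, adjusted p = 0.00189 in limma) and 0.31 over both ages (adjusted p = 0.0108 in limma), and kept both calls on leaving out any 1 pool. The value over both ages averages the aged rise with young means that were alike. The difference of the Tab1 effect between the ages was not called, and its levels were near the filter of 0.05.

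Among target genes, Gpr34, a microglial receptor gene, was at 9.40 ± 0.43 in young control against 8.39 ± 0.50 in young antibiotic pools, and at 9.64 ± 0.37 and 7.38 ± 0.97 in aged ones. It fell by 0.28 over both ages (adjusted p = 0.00871 in limma), and by 0.39 in aged mice (adjusted p = 0.0131 in limma). The aged call was lost without aged control 1 (adjusted p = 0.0575) or aged antibiotic 2 (-0.28, adjusted p = 0.0723 in limma). Cdkn1a, which encodes the cell cycle inhibitor p21, fell by 0.51 over both ages (adjusted p = 0.0449 in limma), but the call was lost on leaving out any 1 of 8 pools (every pool but young antibiotic 2 and 3, aged control 3 and aged antibiotic 1), with changes from -0.61 to -0.35 over all 12 such fits.

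With age, target genes moved in both directions. Over both arms 4 of 20 were called higher and 2 lower, 3 of 24 Smad partners higher, and 1 of 4 in the TAK1 arm higher. Of all genes, 7.52% were called higher and 2.34% lower. None was called among ligand, latency, receptor and other Smad genes. Id2, an inhibitor of DNA binding, rose by 0.45 in controls, 0.56 in antibiotic pools and 0.50 over both arms (adjusted p = 0.0277, 0.00311 and 0.000190 in limma), from 2.38 to 3.26 in controls. The Id2 call in controls was lost without young control 1 or 3 or aged control 1 or 2, with changes from 0.36 to 0.54 over the 12 fits.

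Runx1, a Smad partner, was at 1.91 ± 0.15 in young control and 2.36 ± 0.06 in aged control pools and rose by 0.31 (adjusted p = 0.00747 in limma). Tab1 rose by 0.54 between young and aged antibiotic pools (adjusted p = 0.00174 in limma). Klf10 rose by 0.34 over both arms (adjusted p = 0.0390 in limma), a call lost without any 1 of 7 pools (young control 1 or 3, young antibiotic 1, aged control 1 or 2, aged antibiotic 1 or 3), with changes from 0.25 to 0.40. The homeostatic microglial genes P2ry12 and Fcrls had lower means in aged pools and were called in antibiotic pools and over both arms. In control pools 0 of 20 target genes were called lower. There P2ry12 was at 11.6 in young and 10.2 in aged pools, and Fcrls at 8.76 and 7.99. P2ry12 fell by 0.33 in antibiotic pools (adjusted p = 0.0102 in limma) and 0.26 over both arms (adjusted p = 0.00303), and Fcrls fell by 0.27 and 0.20 (adjusted p = 0.0384 and 0.0194 in limma). In microglia matched on raw UMIs P2ry12 no longer passed over both arms (-0.15, adjusted p = 0.0723 in limma). In antibiotic pools the matched values were -0.21 for P2ry12 and -0.25 for Fcrls (adjusted p = 0.110 and 0.0871 in limma). P2ry12 in antibiotic pools was lost without young antibiotic 3 or aged antibiotic 2 (-0.27 and -0.28). Fcrls in antibiotic pools was lost without young control 1, young antibiotic 2 or 3, or aged antibiotic 1 or 2 (-0.20 at the least), and over both arms without young antibiotic 3, aged control 2 or aged antibiotic 2 (-0.17 at the least). Named after their values were seen, further called genes over both arms were Pmepa1 (0.30, adjusted p = 0.000331 in limma), Tgif1 (0.27, adjusted p = 0.00209) and Tgfbi (0.30, adjusted p = 0.0164), all higher in aged pools.

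**Figure D5:**
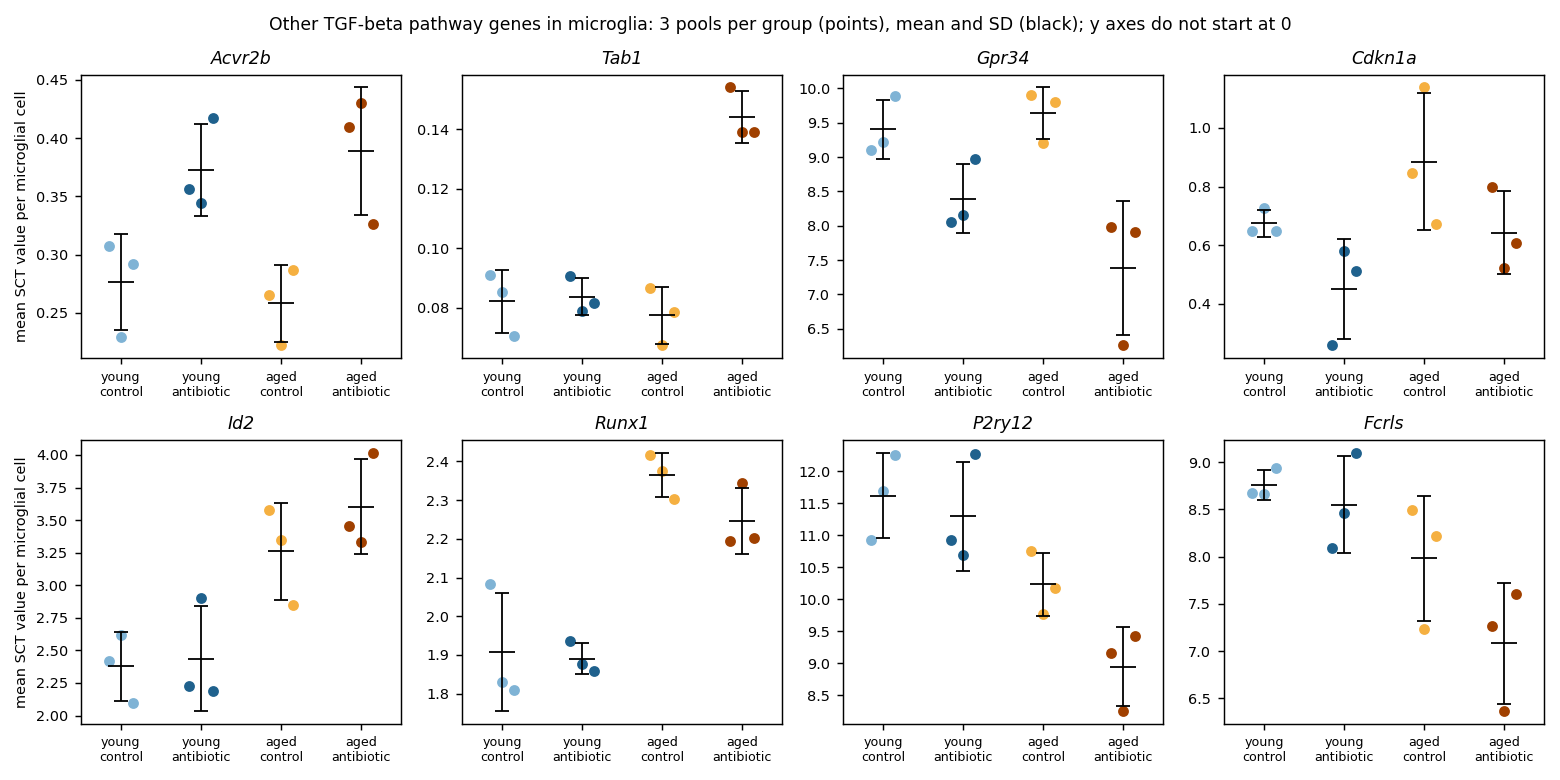
Mean SCT value per microglial cell (y axis, not starting at 0) of 8 other pathway genes by group (x axis); points are the 3 pools of a group and black marks their mean and SD. Acvr2b is higher and Gpr34 lower in antibiotic pools at both ages, Tab1 is high in aged antibiotic pools, and within each arm Id2 and Runx1 are higher and P2ry12 and Fcrls lower in the aged pools than in the young.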

How the data were processed

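In the RNA table the authors deposited, each value is a score, namely a whole-number UMI value corrected for depth by SCTransform, going by the table's name and its sums. The score summed per cell to the SCT total of the deposited metadata in 13052 of 13052 cells and to the raw UMI count total in 62, so no count model was used. Raw UMI counts per cell came from the deposited metadata, as did the authors' cell types, hashtag pools and singlet calls; 34 of its 40 columns were not used. Cell Ranger 3.0.2, Seurat 3.0.1 and build mm10 are named in the submitters' processing notes; the cell filters and the settings of SCTransform are not given in the sources used here. Every cell was listed as a singlet, so no further doublet filter was applied.

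Values were averaged over the cells of a type in each of 12 pools, after which log2 was taken with 0.05 added. Genes whose mean across pools reached 0.05 entered limma 3.58.1 (R 4.3.3) with a trended prior and 7 contrasts, adjusted within each contrast at 0.05. One fit with group means held all 12 pools, so the groups shared a spread. Fold changes are on the scale of log2 of the mean plus 0.05 and understate changes of low genes. Each pool combined mice, so p-values measure the spread between pools. Types needed at least 20 cells in every pool (10 as an alternative). Levels used pools with at least 5 cells of a type. The fit was tested on simulated data.

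The 10 genes, the marker and pathway lists and the tests were chosen with earlier results of these data known. Pathway genes are named as up to 3 raised and 3 lowered past the threshold in each contrast, by size of change. Likeness was ranked over type-by-group means of at least 10 cells, among genes reaching a mean of 0.2. Promoter windows, positions and names are from RefSeq (GRCm38.p6). Antibody data were not used. Some genes that meet the naming rules are not reported here, though list counts include them. Alternatives were other pseudocounts (0.5 and 0.01), filters (none, 0.2) and prior, the mean of log values per cell, pools rescaled to equal sums, microglia matched on raw UMIs (5360 to 8453, 4702 cells), leaving out each pool, and the hashtag number as a block.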

Additional observations from a re-analysis of the deposited data

How the results depend on the processing

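The fall of Nrros in microglia over both ages kept its direction and stayed past the threshold in limma under each of the 10 other settings and 12 fits without 1 pool, with log2 changes from -0.43 to -0.17 (the last with the mean of log values per cell, which is another scale) and a highest adjusted p of 0.0178. For the number of the 10 genes called in microglia, the antibiotic in young mice gave 0, but 1 in cells of at least 2000 raw UMIs and 1 with the mean of log values per cell, Nrros in each; without 1 pool it gave 0 to 1. In aged mice it gave 0 with no filter on low values and 0 to 1 without 1 pool; over both ages it gave 1 to 2. Age over both arms gave 0 in microglia matched on raw UMIs and 0 to 2 without 1 pool. It also gave 0 with a robust prior variance without trend, 2 changes made together (Smad7 then had an adjusted p of 0.0640 in limma). In Ly6CLow cells, age gave 0 in controls and 0 in antibiotic pools with no filter, and 0 in controls, 0 in antibiotic pools and 0 over both arms in cells of at least 2000 raw UMIs; without 1 pool it gave 0 to 1, 0 to 2 and 2 to 4. With no filter, the calls of Nrros, Acvr2b and Gpr34 in aged mice, Gpr34 and Cdkn1a over both ages, Id2 for age in controls, Klf10 over both arms and Fcrls for age were lost too (adjusted p 0.0638 to 0.210 in limma). With the robust prior without trend, those of Cdkn1a over both ages and Id2 in controls were lost (adjusted p 0.195 and 0.0615 in limma). So were those of Fcrls in antibiotic pools (0.0729) and Klf10 over both arms (0.0698, and 0.149 in matched cells). Cdkn1a was also lost in cells of at least 2000 raw UMIs (0.0569) and with equal sums (0.0557), and Fcrls in antibiotic pools in the former (0.0537). The level of Smad2 in microglia was 0.268, and 0.292 in cells of at least 2000 raw UMIs. The cause of these differences was not tested.

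Of 70 gene-by-contrast values of the 10 genes in microglia, 25 changed sign under at least 1 of 23 alternatives; none of these 25 was a call, and the largest was 0.0711. In Ly6CLow cells 31 of 70 did so, in BAM 32 and in BCells 45, again none of them called. Counts over all genes moved more: for the antibiotic in young microglia 0 to 58 against 12, in aged 105 to 460 against 283 and over both ages 209 to 713 against 473; for age 106 to 298 against 233 in controls, 278 to 818 against 539 in antibiotic pools and 565 to 1139 against 864 over both arms. The lowest came from no filter on low values, from matched cells or from leaving out 1 pool, and the highest from cells of at least 2000 raw UMIs or the mean of log values. The cuts at 2000 raw UMIs and without shared barcodes were chosen after seeing the data.

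Deviations of pools with the same hashtag number correlated across genes at -0.0946 to 0.109, so the numbers do not pair the pools. With the replicate block on that number, contrasts by age gave 0, 0 and 1 of the 10 genes called in microglia and 1, 1 and 2 in Ly6CLow cells, as without it, and all genes called in microglia were 234, 563 and 888. The difference of the antibiotic effect gave 3 of all genes, against 0. The antibiotic contrasts within an age could not be fitted with the block, because each number belongs to 1 arm.

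Precision was lower outside microglia: the SE of the Nrros antibiotic change over both ages was 0.060 in microglia, 0.17 in Ly6CLow cells and 0.14 in BAM. Shallow cells, more frequent in aged pools, and the wells, which separate the ages, limit every comparison by age.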
